A study of Mus musculus with 3 samples.

Results

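The genes described here are 39 genes that interferon signals switch on, followed array by array in the brown adipose tissue of mice, a fat that burns fuel for heat. They were chosen by name as interferon response genes, and each was matched to its probes through RefSeq accessions. Of the 39, 37 had a matched probe. A gene counted as measured when 1 of its probes was well above background in at least 1 channel on all 3 arrays, which held for 36 of them, among 19328 genes and unnamed features measured in all. Mx1 and Mx2, large antiviral GTPases, had no matched probe and are not analysed here, and both probes of the oligoadenylate synthetase Oas1g were well above background on 0 arrays in either channel.

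Each of the 3 Agilent arrays carried both genotypes: RNA of 1 Ad-Lkb1 sample labelled with Cy5, and RNA of 1 wild-type littermate sample labelled with Cy3. Every animal was a male of 10 weeks fed regular chow. Ad-Lkb1 marks deletion of LKB1, a kinase encoded by Stk11 that activates AMPK and related kinases. The design gives 3 biological replicates of each genotype. What drives the deletion is not given in the sources used here. The strain label reads C57BL/6J for Ad-Lkb1 and C57BL/6 for wild type. Since dye and strain label followed genotype on every array, their parts cannot be told apart from that of genotype.

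Interferons are secreted proteins that bind paired cell-surface receptors and activate the Janus kinases Jak1, Jak2 and Tyk2. Type I and type III interferons lead to a complex that holds STAT2 and IRF9 and binds the interferon-stimulated response element (ISRE) in promoters. Interferon gamma, made chiefly by T cells and NK cells, acts through the gamma-activated site (GAS). The induced genes encode sensors of viral nucleic acid, transcription factors that sustain the response, and proteins that block viral replication. Adipocytes and the immune cells of fat can both respond to these signals.

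Promoter sequences are shown for 6 of the genes because they carry, in their letters, the response elements the pathway is named for. RefSeq promoter windows (GRCm38.p6) were found for 29 of the 39 genes. Both strands of the 250 bases before the start were searched for the ISRE core GAAANNGAAA and the GAS core TTCNNNGAA, where N is any base. Neighbouring ISRE matches may overlap by 4 bases. The ISRE core was present in 12 of the 29 (41.4%), against 3.46% of 27025 genes in the table, and the GAS core in 6 of the 29 (20.7%), against 8.13%. A match describes the letters and is no measured binding site. The sequences below give the 130 bases before the start, 5′ to 3′ on the gene's strand, with ISRE core matches in capitals in the first 5 and the GAS core match in capitals in Irf1.
Isg15: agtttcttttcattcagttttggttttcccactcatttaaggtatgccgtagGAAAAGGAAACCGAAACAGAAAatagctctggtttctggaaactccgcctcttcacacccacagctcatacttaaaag
Ifit1: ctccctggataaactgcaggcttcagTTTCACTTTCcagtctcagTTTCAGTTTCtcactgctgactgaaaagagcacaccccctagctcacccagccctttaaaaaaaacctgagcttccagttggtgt
Rsad2: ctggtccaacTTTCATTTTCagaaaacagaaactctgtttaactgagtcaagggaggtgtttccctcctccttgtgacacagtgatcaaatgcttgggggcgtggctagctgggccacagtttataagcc
Gbp2: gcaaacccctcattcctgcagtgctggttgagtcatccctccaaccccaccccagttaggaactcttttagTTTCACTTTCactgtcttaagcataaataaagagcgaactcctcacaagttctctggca
Bst2: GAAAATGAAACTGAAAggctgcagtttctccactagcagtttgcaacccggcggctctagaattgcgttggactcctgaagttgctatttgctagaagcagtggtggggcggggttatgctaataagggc
Irf1: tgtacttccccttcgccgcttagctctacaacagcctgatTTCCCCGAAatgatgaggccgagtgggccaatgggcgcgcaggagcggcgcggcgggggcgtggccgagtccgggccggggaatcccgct
These stretches lie at chr4:156200819-156200948 (minus strand) for Isg15, chr19:34640759-34640888 (plus) for Ifit1, chr12:26456453-26456582 (minus) for Rsad2, chr3:142620533-142620662 (plus) for Gbp2, chr8:71537473-71537602 (minus) for Bst2 and chr11:53769884-53770013 (plus) for Irf1. The capitals begin 78 bases before the start in Isg15, where 3 matches overlap, 104 bases before it in Ifit1, 120 in Rsad2, 59 in Gbp2, 130 in Bst2 and 90 in Irf1. Their ratios on array 3 differed: Isg15 had a log2 ratio of -0.35 there, Ifit1 0.59 and Rsad2 0.34, while Gbp2 had -3.35, Bst2 -1.08 and Irf1 -2.02. ISRE core matches thus occurred both in genes near or above 0 there and in Gbp2 and Bst2. Bst2 also held a GAS core match, 136 to 128 bases before the start, which begins outside the stretch shown.

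Most of these genes were several-fold higher in the Ad-Lkb1 sample on arrays 1 and 2, and near or below the wild-type level on array 3. The median log2 ratio (Ad-Lkb1 against wild type) of the 36 genes was 1.90 on array 1, 1.47 on array 2 and -0.15 on array 3. The same median over all features was -0.016, -0.0023 and -0.0076. All 36 genes had a log2 ratio above 0 on arrays 1 and 2, and 13 of 36 did on array 3 as well, against 24% of all features above 0 on every array. Array 3 gave the lowest of the 3 ratios in 35 of the 36 genes, against 33.6% of all features, and array 1 the highest in 32, against 32.7%. A log2 ratio above 1 on both array 1 and array 2 was found in 23 of the 36 genes, and in 2.16% of all features. Of these 23, 11 lay between -0.5 and 0.5 on array 3 (0.59% of all features follow that pattern), 7 lay below -0.5 (0.305% of all features) and 5 lay above 0.5. Only Oasl1 and Oas1a, both of the oligoadenylate synthetase family, exceeded 1 on all 3 arrays (0.849% of all features). For Oas1a this rests on its brightest probe, since a second kept probe had 0.64 on array 3.

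**Figure D1:**
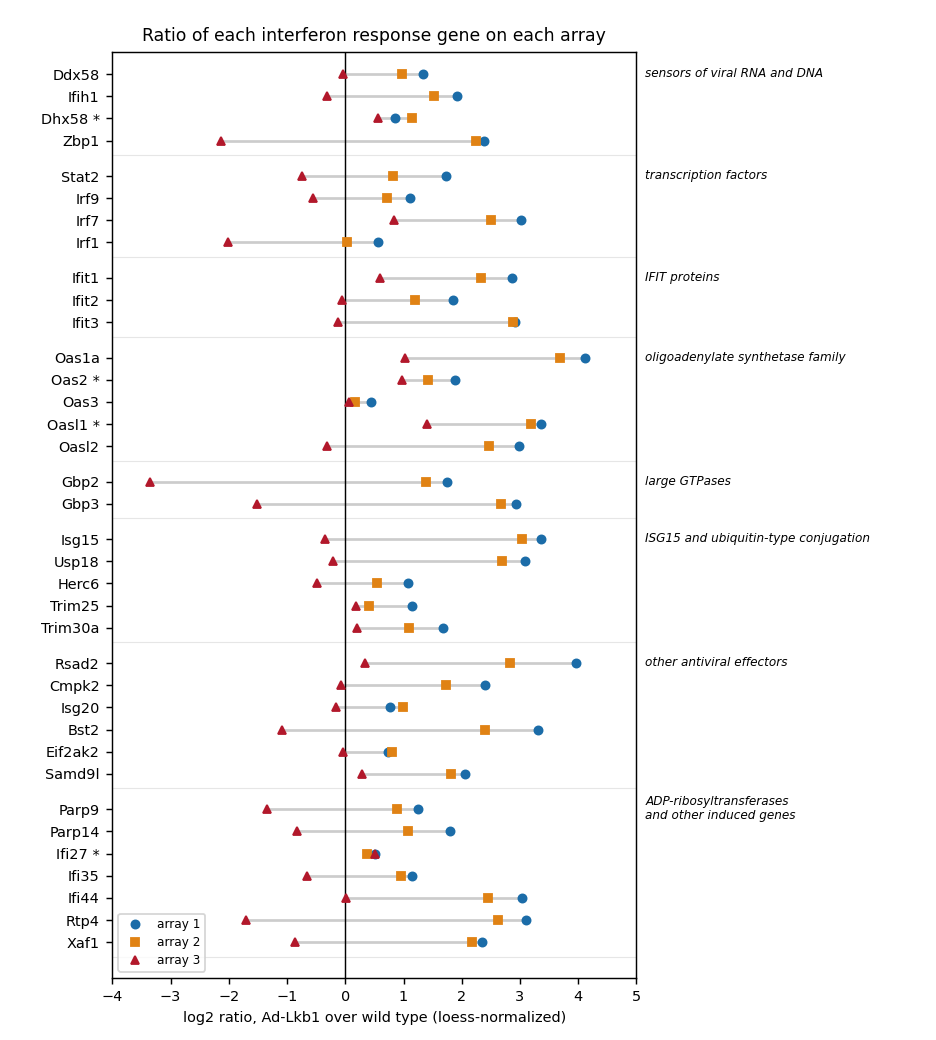
Log2 ratio, Ad-Lkb1 to wild type (horizontal axis), for each of the 36 measured genes (vertical axis), grouped by role, with 1 symbol per array and a grey line from the lowest to the highest array. An asterisk marks the 4 genes past the limma threshold, and array 3 is the lowest symbol in 35 of the 36 genes.

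Over the 3 arrays, 4 of the 36 genes passed the threshold as higher in Ad-Lkb1 tissue (limma, Benjamini-Hochberg adjusted p under 0.05 over all features), where the background was 4.78% of all features. These were Dhx58, Oas2, Oasl1 and Ifi27. As lower, 0 of 36 passed (background 3.92%). At an unadjusted p under 0.05, 16 of the 36 passed in limma, as did 5671 of all 19328 features. Unadjusted counts given below for roles and lists have this same background. The count depended on which arrays entered. Without array 3, 32 of 36 passed as higher (background 6.89%), among them 3 of the 4, with Ifi27 the exception. Without array 1 or without array 2, limma called 0 of 36 and 0 of all features. In those fits 5 and 6 of the 36 had an unadjusted p under 0.05 in limma, as did 3929 and 3563 of the 19328 features. With all arrays, Dhx58 was also lost under median centring (limma adjusted p = 0.073) and without a filter on dim probes, Oas2 with the software's processed signals (0.051) and without a filter, and Oasl1 without a filter. The standard deviation (SD) of the log2 ratio over the arrays had a median of 1.22 in these genes and of 0.15 over all features.

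Of the sensors of viral RNA and DNA, 1 of 4 rose. Dhx58 encodes LGP2, a helicase that regulates the RNA sensors RIG-I and MDA5. Its log2 level (single-channel signal after normalization) was 7.90, 7.94 and 7.53 in the Ad-Lkb1 samples of arrays 1 to 3, and 7.04, 6.81 and 6.96 in the wild-type samples. The genotypes did not overlap. Its log2 ratio was 0.86, 1.14 and 0.56, with a mean of 0.85 (SE 0.13, SD 0.29, n = 3 arrays, limma adjusted p = 0.0336), and its SD was among the 3 smallest of the 36. Zbp1, a sensor of Z-form nucleic acid that can start necroptosis, had 1 of the 3 largest SDs, 2.57. Its log2 level was 9.68, 9.05 and 8.99 in Ad-Lkb1 and 7.29, 6.80 and 11.12 in wild type, so that the wild-type sample of array 3 was the highest of all 6. The ratio went from 2.39 and 2.25 on arrays 1 and 2 to -2.13 on array 3 (mean 0.84, SE 0.99, limma adjusted p = 0.633). A second kept probe of Zbp1 had 0.84, 0.93 and -1.51 (mean 0.084). Ddx58, which encodes RIG-I, a sensor of uncapped viral RNA, was the brightest of this role. Its ratio was 1.34, 0.97 and -0.047 (mean 0.75, SE 0.28, limma adjusted p = 0.167). Ifih1, which encodes MDA5, a sensor of long double-stranded RNA, had 1.91, 1.52 and -0.31.

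None of the 4 transcription factors passed (0 of 4; 1 at an unadjusted p under 0.05 in limma). Irf1, which is induced by interferon gamma through the GAS shown above, was the brightest. Its log2 level was 10.58, 10.05 and 10.33 in Ad-Lkb1 and 10.02, 10.03 and 12.35 in wild type. The wild-type sample of array 3 stood above the other 5, which lay within 0.56 of each other. The ratio was 0.56, 0.025 and -2.02 (mean -0.48, SE 0.53, limma adjusted p = 0.607). Without array 3 the mean of Irf1 was 0.29. Irf7, the factor that amplifies type I interferon production, behaved otherwise. Its level was 9.44, 8.75 and 8.72 in Ad-Lkb1 and 6.42, 6.25 and 7.89 in wild type, with no overlap. Its ratio was 3.02, 2.50 and 0.83 (mean 2.12, SE 0.44), not past the threshold (limma adjusted p = 0.0594). With all arrays, Irf7 passed under median centring, without background subtraction and with an offset of 10, and not under the other settings. Stat2 and Irf9, of the ISRE-binding complex, had ratios of 1.73, 0.82 and -0.75, and of 1.11, 0.72 and -0.55. In both, the wild-type sample of array 3 was the highest of the 6 samples.

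The IFIT proteins bind viral RNA that lacks the host's cap methylation and block its translation; 0 of the 3 passed in limma, and 2 of 3 had an unadjusted p under 0.05. Ifit3, the brightest, had log2 levels of 10.79, 10.35 and 9.91 in Ad-Lkb1 and of 7.88, 7.48 and 10.04 in wild type. Only the wild-type sample of array 3 reached the Ad-Lkb1 range. The ratio was 2.92, 2.87 and -0.13 (mean 1.89, SE 0.67, limma adjusted p = 0.153). Ifit1, whose promoter stretch holds a pair of ISRE cores, had 2.85, 2.33 and 0.59, and its genotypes did not overlap. Ifit2 had 1.85, 1.19 and -0.060.

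The oligoadenylate synthetases make a messenger that activates RNase L, which cuts viral and cellular RNA, while the related OASL1 lacks that activity. Of the 5 measured, 2 rose. Oasl1 had log2 levels of 10.70, 10.15 and 9.26 in Ad-Lkb1 and of 7.34, 6.96 and 7.86 in wild type. Every Ad-Lkb1 sample was above every wild-type sample, by 1.40 at the closest. Its ratio was 3.36, 3.19 and 1.40 (mean 2.65, SE 0.42, SD 1.09, limma adjusted p = 0.0372). Oas2 had levels of 8.53, 8.25 and 8.22 in Ad-Lkb1 and of 6.65, 6.83 and 7.24 in wild type, again without overlap. Its ratio was 1.88, 1.42 and 0.98 (mean 1.43, SE 0.19, SD 0.45, limma adjusted p = 0.0270). Oas1a, the brightest of the family, had the highest mean ratio of the 36 genes but was not past the threshold. Its level was 11.00, 10.51 and 9.88 in Ad-Lkb1 and 6.88, 6.82 and 8.86 in wild type. The ratio was 4.12, 3.69 and 1.02 (mean 2.94, SE 0.65, limma adjusted p = 0.0647). A second kept probe of Oas1a had 2.63, 1.98 and 0.64, and its mean of 1.75 was below that of Oasl1. Oas3 had 1 of the 3 smallest SDs, 0.20, and lay close to background. Its ratio was 0.44, 0.17 and 0.056, a mean of 1.17-fold, and did not pass (limma adjusted p = 0.226). Its wild-type channel was well above background on 0 of 3 arrays, so this fold is limited by signal over background. Oasl2 had 2.98, 2.47 and -0.31. In none of these 5 genes was the wild-type sample of array 3 the highest of the 6.

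The large GTPases gave the widest spread; 0 of 2 passed in limma and 0 of 2 had an unadjusted p under 0.05. Gbp2, a guanylate-binding protein that is strongly induced by interferon gamma and attacks the membranes of intracellular pathogens, had the largest SD of the 36 genes, 2.85. Its log2 level was 11.10, 10.66 and 10.35 in Ad-Lkb1 and 9.35, 9.26 and 13.70 in wild type. The wild-type sample of array 3 was 21.1-fold above the mean of the other wild-type samples. The ratio was 1.75, 1.39 and -3.35 (mean -0.068, SE 1.09, limma adjusted p = 0.978), and without array 3 the mean of Gbp2 was 1.57 and passed (limma adjusted p = 0.00758). Gbp3, a paralog of the same cluster, had levels of 11.45, 11.00 and 10.61 in Ad-Lkb1 and of 8.52, 8.33 and 12.13 in wild type. Its ratio was 2.94, 2.67 and -1.52. Both genes thus ranked the 6 samples with the wild-type sample of array 3 on top and the other wild-type samples at the bottom.

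ISG15 is a ubiquitin-like protein that is joined to target proteins; USP18 removes it, and HERC6 is its main ligase in mice. Of the 5 genes of this role, 0 passed in limma, and 3 had an unadjusted p under 0.05. Trim25, a ubiquitin ligase that activates RIG-I, was the brightest. Its log2 level was 11.14, 10.89 and 11.00 in Ad-Lkb1 and 9.99, 10.48 and 10.82 in wild type. The genotypes did not overlap, although the lowest Ad-Lkb1 sample and the highest wild-type sample lay close together. Its ratio was 1.15, 0.41 and 0.18 (mean 0.58, SE 0.20, limma adjusted p = 0.149). Isg15 had levels of 12.45, 11.67 and 11.01 in Ad-Lkb1 and of 9.08, 8.64 and 11.37 in wild type, with a ratio of 3.37, 3.04 and -0.35. Usp18 ran the same way, with a ratio of 3.08, 2.70 and -0.21. Herc6, whose wild-type channel was well above background on 2 of 3 arrays, had 1.07, 0.55 and -0.48, and Trim30a, a negative regulator of inflammatory signalling, had 1.67, 1.10 and 0.20.

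Among the other antiviral effectors, 0 of 6 passed in limma, and 3 of 6 had an unadjusted p under 0.05. Bst2, or tetherin, which holds budding virus particles on the cell surface, was the brightest. Its log2 level was 12.55, 11.86 and 11.83 in Ad-Lkb1 and 9.23, 9.46 and 12.91 in wild type. The wild-type sample of array 3 was the highest of the 6, 11.8-fold above the mean of the other wild-type samples. The ratio was 3.32, 2.40 and -1.08 (mean 1.55, SE 0.89, limma adjusted p = 0.331). Rsad2, or viperin, an enzyme that makes a chain-terminating nucleotide, had levels of 11.12, 10.01 and 9.42 in Ad-Lkb1 and of 7.16, 7.18 and 9.07 in wild type, without overlap. Its ratio was 3.96, 2.83 and 0.34 (mean 2.38, SE 0.71, limma adjusted p = 0.114). Cmpk2, the nucleotide kinase encoded beside it, had 2.39, 1.73 and -0.070. Samd9l, a restriction factor, had 2.06, 1.82 and 0.29. The ratios of the exonuclease gene Isg20 were 0.77, 0.98 and -0.16. Eif2ak2 encodes PKR, a kinase that halts translation upon double-stranded RNA; its ratios were 0.73, 0.80 and -0.043.

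Of the ADP-ribosyltransferases and other induced genes, 1 of 7 rose. Ifi27, which encodes a small mitochondrial and nuclear envelope protein, was the brightest of all 36 genes and the least variable (SD 0.080). Its log2 level was 16.45, 16.37 and 16.45 in Ad-Lkb1 and 15.94, 16.00 and 15.94 in wild type. The genotypes did not overlap, and the wild-type sample of array 3 was level with the other wild-type samples. The ratio was 0.51, 0.37 and 0.51 (mean 0.46, SE 0.072, limma adjusted p = 0.0361). With median centring in place of loess, which moved the median of all features to -0.42, the mean of Ifi27 was -0.21, so its direction depends on the scaling, and it did not pass with the processed signals (0.17) or without background subtraction (0.31). Rtp4, a chaperone that also restrains some viruses, had the second largest SD, 2.64. Its level was 11.14, 10.51 and 9.89 in Ad-Lkb1 and 8.04, 7.88 and 11.59 in wild type. The ratio was 3.10, 2.62 and -1.70 (mean 1.34, SE 1.01, limma adjusted p = 0.452). Parp9 and Parp14, ADP-ribosyltransferase family members, had 1.25, 0.88 and -1.35, and 1.79, 1.08 and -0.82. Xaf1, a pro-apoptotic gene, had 2.35, 2.18 and -0.86, Ifi35 had 1.15, 0.96 and -0.66, and Ifi44 had 3.04, 2.45 and 0.0066. In Rtp4, Parp9, Parp14, Xaf1 and Ifi35 the wild-type sample of array 3 was the highest of the 6. For Xaf1 this rests on its brightest probe. A second kept probe of Xaf1 had ratios of 0.22, 0.20 and 0.042, without the rise on arrays 1 and 2 or the fall on array 3.

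**Figure D2:**
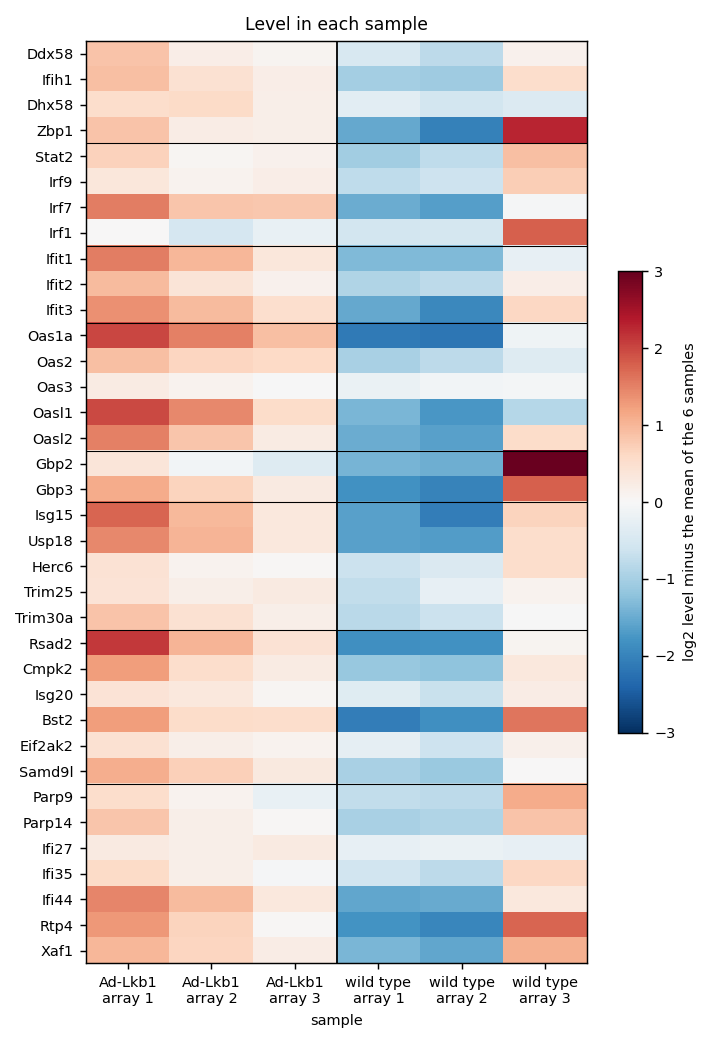
Log2 level of each gene (vertical axis) in each of the 6 samples (horizontal axis), coloured by its difference from the gene's mean over the 6 samples, with lines between roles and genotypes. The wild-type samples of arrays 1 and 2 are below the gene's mean in all 36 genes, and the wild-type sample of array 3 is the highest of the 6 in 13 of the 36 genes.

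The levels place the difference between arrays mainly in the wild-type channel. In all 36 genes every Ad-Lkb1 sample was above the wild-type sample of array 1 (background 33.5% of features), and in all 36 above that of array 2 (background 34.9%). Every Ad-Lkb1 sample was above the wild-type sample of array 3 in 13 of 36 (background 34%). With each channel scaled to its median the 3 counts were 35, 35 and 13, and with the software's processed signals they were 35, 36 and 15. The wild-type sample of array 3 was the highest wild-type sample in 34 of 36 genes (background 30.5%) and lay more than 1 log2 unit above the mean of the others in 26 of 36 (background 1.88%). Its median distance from that mean was 1.56, with a range from -0.031 for Ifi27 to 4.40 for Gbp2. The corresponding medians were -0.78 for the wild-type sample of array 1 and -0.82 for that of array 2. Those samples lay more than 1 above the mean of the others in 0 of 36 genes each (background 0.171% and 0.207%).

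The Ad-Lkb1 samples differed less among themselves, and in another order. The Ad-Lkb1 sample of array 1 was the highest of its genotype in 34 of 36 genes (background 39.6%), with a median distance of 0.62 from the mean of the others. For array 2 that distance was -0.072, and for array 3 it was -0.47, the lowest sample in 31 of 36 (background 38.4%). The low ratios of array 3 thus went with a higher wild-type level and a lower Ad-Lkb1 level on that array. The SD over the samples of a genotype had a median of 0.90 in wild type and 0.39 in Ad-Lkb1, against 0.11 and 0.095 over all features, and it was larger in wild type in 32 of 36 genes (background 58.8%).

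**Figure D3:**
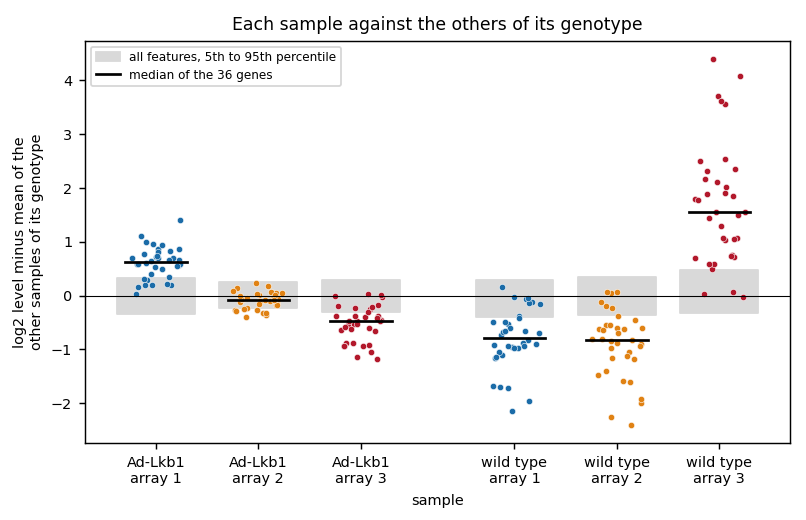
Log2 level of each of the 36 genes in a sample minus the mean of the other samples of its genotype (vertical axis), for each of the 6 samples (horizontal axis); points are genes, black bars their median, and grey boxes the 5th to 95th percentile of all features. The medians are 0.62, -0.072 and -0.47 in Ad-Lkb1 and -0.78, -0.82 and 1.56 in wild type.

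Across all features, which are not independent replicates, Pearson's r between the log2 ratios was 0.73 for arrays 1 and 2, 0.36 for arrays 1 and 3, and 0.50 for arrays 2 and 3. The share of features well above background was 46.7% to 46.8% in the wild-type channel and 47.7% to 51.3% in the Ad-Lkb1 channel, and the number of saturated features was 0. Stk11 itself, the check of the deletion, had ratios of -1.26, -1.17 and -1.17 (mean -1.20, SE 0.069, limma adjusted p = 0.0105), so its ratio on array 3 was like those of the other arrays. Where its probe lies relative to the deleted stretch was not analysed here.

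**Figure D4:**
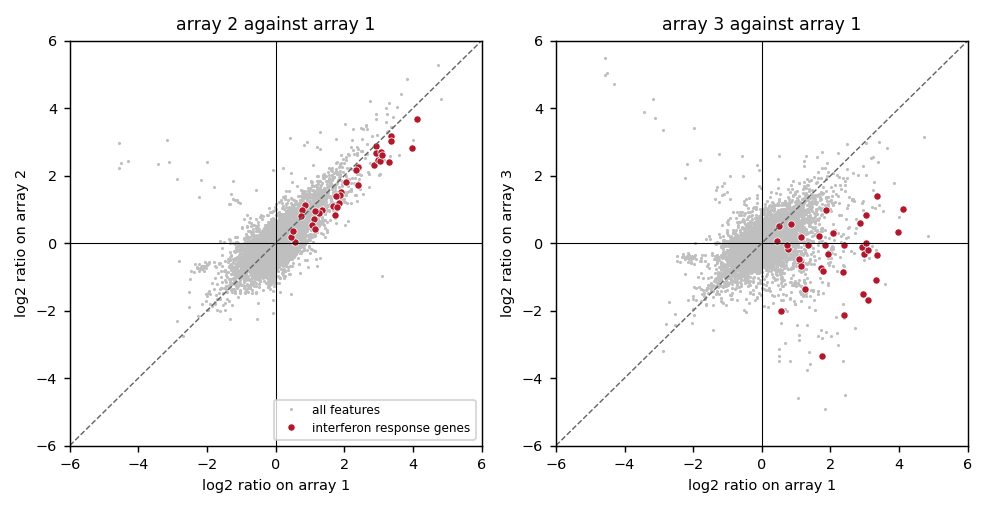
Log2 ratio on array 2 (left panel) and on array 3 (right panel) against that on array 1, for all 19328 features (grey) and the 36 interferon response genes (red); the dashed line marks equality. Most red points lie below the line in both panels, and farther below it against array 3, where 13 of 36 lie above 0; their medians are 1.90, 1.47 and -0.15 on arrays 1 to 3.

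Other genes of the interferon pathway were listed by role. Over the 105 measured, 2 rose and 3 fell in limma, shares below the background of 4.78% and 3.92%. Of 5 measured interferon ligands, 0 passed the limma threshold and 0 had an unadjusted p under 0.05; their mean log2 level was 6.32 to 6.53 in Ad-Lkb1 and 6.33 to 6.54 in wild type. The brightest, Ifnl3 and Ifna14, had mean log2 ratios of -0.035 and -0.049. The probes of Ifnb1 and Ifng, the genes of interferon beta and gamma, were not well above background on all arrays in either channel. The Ifnb1 probe was so on 2 arrays in Ad-Lkb1 and on 0 in wild type, and the Ifng probe on 2 and on 1. At these dim signals the ratios were 0.41, 0.35 and -0.0067 for Ifnb1 and 0.23, 0.048 and -1.21 for Ifng, in both cases lowest on array 3. Of 9 receptors and kinases, 1 fell: Ifnar1, a chain of the type I interferon receptor, had ratios of -0.33, -0.41 and -0.61 (mean -0.45, SE 0.085, limma adjusted p = 0.0496). That call was lost with any array left out and under 6 other settings, among them the mean of the gene's probes (-0.17). The brightest of that list, Ifnar2 and Ifngr1, had means of -0.034 and -0.33 and did not pass. Of 16 genes of the sensing pathways, 1 fell: Mavs, the mitochondrial adaptor of RIG-I and MDA5, had -0.73, -0.58 and -0.62 (mean -0.64, SE 0.072, limma adjusted p = 0.0227), a call lost with the processed signals (0.095). Irf3, a factor that MAVS activates, had a mean of -0.075. In 11 of these 16 genes the wild-type sample of array 3 was the highest of its genotype (background 30.5%). Samhd1, which encodes an enzyme that degrades nucleotides, and Irf8, a factor of myeloid cells, were singled out after their values were seen. Their ratios were 1.49, 1.14 and -1.39, and 1.24, 0.999 and -0.78. Of 9 inhibitors of interferon signalling, 0 passed in limma and 1 had an unadjusted p under 0.05. The brightest were the phosphatase genes Ptpn11 (mean 0.32) and Ptpn2 (mean 0.20), which turned to -0.39 and -0.42 under median centring. Socs1, a feedback inhibitor of Janus kinases that was singled out after its values were seen, had 0.47, 0.51 and -1.24.

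A wider list of 66 measured interferon-induced genes showed the same order of the arrays. Its median log2 ratio was 1.14, 0.82 and -0.26 on arrays 1 to 3. Array 3 was lowest in 60 of 66 (background 33.6%), and 26 of 66 exceeded 1 on both array 1 and array 2 (background 2.16%). In limma, 2 of the 66 rose and 1 fell. An unadjusted p under 0.05 was found in 25 of the 66, and in 5671 of all 19328 features. The shares that rose and fell were below the background of 4.78% and 3.92%. Ifi204, a DNA-binding protein of the interferon-inducible p200 family, had 2.21, 1.92 and 1.40 (mean 1.84, SE 0.17, limma adjusted p = 0.0165). Daxx, a histone chaperone, had 0.74, 0.64 and 0.54 (mean 0.64, SE 0.076, limma adjusted p = 0.0243), but turned to -0.065 under median centring. Azi2, an adaptor of the kinase TBK1, had -0.33, -0.33 and -0.41 (mean -0.36, SE 0.067, limma adjusted p = 0.0489), a call lost with any array left out. The brightest of the list, Sp110 and Ms4a4c, had means of 0.71 and 0.57 and did not pass.

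The wild-type sample of array 3 was the highest of the 6 in 30 of these 66 genes, against 14.7% of all features. The genes named next were singled out after their values were seen. Igtp, an immunity-related GTPase induced by interferon gamma, had log2 levels of 11.54, 11.07 and 10.46 in Ad-Lkb1 and of 9.12, 9.33 and 14.97 in wild type. Psmb9, a subunit of the immunoproteasome, had 10.34, 9.80 and 9.77 in Ad-Lkb1 and 8.93, 8.78 and 13.36 in wild type. Cxcl9, a chemokine that interferon gamma induces and that draws T cells, had 10.27, 9.41 and 9.29 in Ad-Lkb1 and 8.52, 8.46 and 12.10 in wild type. In all 3 genes the wild-type sample of array 3 was the highest and the other wild-type samples were the lowest. Cxcl10, a chemokine that type I interferon also induces, had 10.94, 10.47 and 10.05 in Ad-Lkb1 and 6.12, 6.18 and 9.84 in wild type. Its genotypes did not overlap, and its ratios of 4.83, 4.29 and 0.21 gave a mean of 3.11 (SE 0.97, limma adjusted p = 0.121).

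Some marker lists of other cell types moved with these genes and others did not, and their part in the result was not tested. The brown adipocyte list was lowest of the 6 samples in wild type on array 3 (12.94). Its markers were split: 7 of the 10 were lowest of their genotype in that sample, while Plin1 and Lep were highest of the 6 there. The neutrophil list was highest in Ad-Lkb1 on array 3 (9.46), as were its markers S100a8, S100a9 and Retnlg. Csf3r and Camp were instead highest in wild type on array 2. Of the 5 neutrophil markers measured, S100a8 and S100a9 rose in limma (2 of 5, background 4.78% of all features). In whole tissue, fewer cells of a type and less RNA per cell cannot be told apart. Of 13 listed markers of T and NK cells, 10 were measured. The wild-type sample of array 3 was the highest of the 6 in 9 of them, against 14.7% of all features. The mean log2 level of the list was 7.41 to 7.56 in Ad-Lkb1, and 6.99, 6.94 and 8.31 in the wild-type samples of arrays 1 to 3. Gzma, a granule protease of cytotoxic cells, had 9.04, 8.56 and 8.38 in Ad-Lkb1 and 6.64, 6.43 and 10.61 in wild type. Lck, a T cell kinase, had 7.64, 7.45 and 7.19 in Ad-Lkb1 and 6.82, 6.94 and 8.84 in wild type. Both genes were singled out after their values were seen, and not every T cell marker showed such a difference. Cd3e had 8.3, 8.4 and 8.6 in wild type, and Cd4, the exception among the 10, was about 8.9 in every wild-type sample. Cd8a and Ncr1 were not well above background on all arrays in either channel, and 0 of the 10 markers passed in limma.

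Of 16 listed macrophage markers, 15 were measured and 7 rose in limma (background 4.78% of all features). These were Adgre1, Cd68, Csf1r, Mrc1, Lyz2, Trem2 and Gpnmb. In 12 of the 15 every Ad-Lkb1 sample was above every wild-type sample, against 17.8% of all features. Array 3 nonetheless held the highest wild-type sample in 13 of the 15 (background 30.5%). The median ratio of the list was 1.62, 2.21 and 0.57 on arrays 1 to 3. The mean log2 level of the list was 8.99 to 9.20 in Ad-Lkb1 and 7.59, 7.44 and 8.18 in the wild-type samples of arrays 1 to 3. Trem2, a lipid receptor, had ratios of 3.42, 3.74 and 3.00 (mean 3.39, SE 0.16, limma adjusted p = 0.0105). Adgre1, which encodes the macrophage antigen F4/80, had 2.23, 2.21 and 1.20 (mean 1.88, SE 0.24, limma adjusted p = 0.0256). Other markers of the list, singled out after their values were seen, were near or below 0 on array 3. C1qa, a chain of complement C1q, had 1.56, 2.23 and 0.28. Fcgr1, an Fc receptor, had 1.14, 0.89 and 0.038, and Cd14, a receptor for bacterial lipopolysaccharide, had 0.29, 0.13 and -0.50. Itgam, an integrin chain, had 0.023, -0.30 and -0.0027. Of 5 measured monocyte markers, 0 passed in limma, and the list's mean level was 6.94 to 7.16 in Ad-Lkb1 and 6.33, 6.17 and 7.31 in wild type. For 5 conventional dendritic cell markers the means were 7.04 to 7.10, and 6.58, 6.38 and 7.00. Of 8 plasmacytoid dendritic cell markers, whose cells are known for making type I interferon, 5 were measured, 1 of them being Bst2. The other 4 had a mean level of 9.83 to 10.67 in Ad-Lkb1 and 9.85 to 10.51 in wild type. Cox6a2 varied most over the 6 samples, from 5.98 to 9.49. Siglech lay at 12.38 to 13.68, Tcf4 at 8.99 to 9.43 and Pacsin1 at 10.9 to 11.22. Of the B cell markers, Ms4a1, Cd79a and Pax5 were well above background on 0 arrays in either channel. Neutrophil markers had mean levels of 8.63 to 9.46 in Ad-Lkb1 and 7.86 to 8.22 in wild type, and 7 endothelial markers 8.57 to 8.89 and 8.72 to 8.94. The 10 brown adipocyte markers, which check the tissue, had a mean log2 level of 13.53 to 13.70 in Ad-Lkb1 and 12.94 to 13.16 in wild type.

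**Figure D5:**
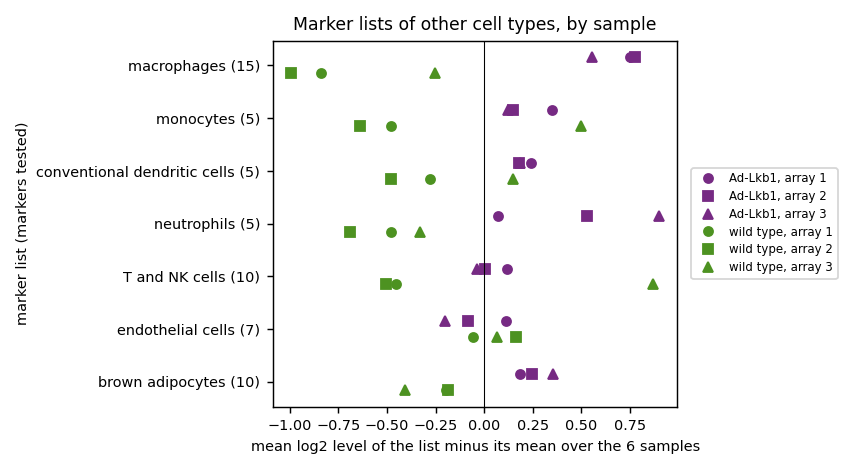
Mean log2 level of a marker list minus its mean over the 6 samples (horizontal axis), by list (vertical axis). The number of measured markers is in parentheses, colours show genotype and symbols show array. The B cell and plasmacytoid dendritic cell lists are not shown. The wild-type sample of array 3 is the highest of the 6 for T and NK cell and monocyte markers, while the means of the macrophage list are 8.99 to 9.20 in Ad-Lkb1 and 7.44 to 8.18 in wild type, array 3 being the highest wild-type sample.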

How the data were processed

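Feature Extraction (Agilent, version 11.5 per the submitters' processing notes) made the authors' scanner files. They give median spot and local background intensity for either channel, as well as processed intensity, per the file headers. Their log10 ratio of Cy5 to Cy3, per the file headers, is repeated in the deposited value table. Medians were used because the files hold no means. In R 4.3.3 with limma 3.58.1, background was corrected with normexp (offset 50), followed by loess within each array. Control and outlier spots were left out and spots of a probe averaged. Of 55681 probes, 25031 were well above background in 1 channel on all 3 arrays, and a gene took its brightest kept probe. The offset understates the ratios of dim genes. Symbols came from RefSeq accessions (GRCm38.p6). The log2 ratio was tested against 0 with limma (Benjamini-Hochberg over 19328 features, threshold 0.05), and the ratio within an array makes the test paired. Levels are log2 signals per channel after loess and Aquantile scaling, with no test. The procedure was tested on simulated arrays.

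The genes, lists and patterns were chosen with earlier results of these data known. Genes given in full were those past the threshold, the brightest of each role, and the 3 of largest and 3 of smallest SD. Of the other pathway lists, genes past the threshold and the 2 brightest were named. Cell type markers did not follow this rule, and some that passed are not named. Other members are named by role. The alternatives were median centring, processed signals, no background subtraction, an offset of 10, other filters, the mean of a gene's probes, the deposited value table, and each array left out. Levels from the processed signals of each channel were added after seeing the data.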

Additional observations from a re-analysis of the deposited data

How the results depend on the processing

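No paired analysis was possible beyond the ratio within each array, which is itself paired, because a further replicate block would leave no genotype term. The lowest ratio was on array 3 in at least 33 of the measured genes under every setting with all arrays. Of 286 gene ratios under those settings, 260 kept direction and side of the threshold and 11 changed sign. Median centring moved the median of all features to -0.42 and called 10097 features, 389 higher and 9708 lower. It called 5 genes here (Irf7, Ifit1, Oas1a, Oas2 and Oasl1), left 5 in place of 11 in the pattern near 0 on array 3, and called 1 of the 105 other pathway genes higher and 28 lower. It turned Stat2 to -0.035, Irf9 to -0.24, Trim25 to -0.13, Isg20 to -0.17, Parp9 to -0.39, Ifi27 to -0.21, Ifi35 to -0.21 and, beyond these, Ptpn11 to -0.39, Ptpn2 to -0.42, Daxx to -0.065 and Ms4a4c to -0.13. Why those genes turned beyond the shift of all features was not tested. The processed signals and the value table called 807 and 806 features and 2 genes here (Dhx58 and Oasl1), gave a median of 2.99 on array 1, and called 1 other pathway gene higher and 0 lower. The calls split 65.4% and 65.3% higher, against 54.9% in the main setting. No background subtraction called 5 other pathway genes higher and 1 lower, and an offset of 10 called 4 and 1, with 64.5% and 66.9% of all calls higher. Gbp2, near 0, became 0.032 with the processed signals, 0.033 with the value table, 0.00048 without background subtraction and 0.0046 with an offset of 10. Ifnar2 became 0.073 and 0.071 with the processed signals and the value table, and Ifnl3 0.016 without background subtraction. Without a filter, 1033 of 36794 features and 1 gene here (Ifi27) were called. The causes of these changes were not tested. With 1 array left out, features called ranged from 0 to 2052, genes here from 0 to 32, and other pathway genes from 0 to 48 higher and from 0 to 1 lower. In those fits Parp9 ranged from -0.23 to 1.07, Irf1 from -0.999 to 0.29 and Gbp2 from -0.98 to 1.57, each highest without array 3 and lowest without array 1. Ifnar2 ranged from -0.074 to 0.0064 and Irf3 from -0.14 to 0.0082, each lowest without array 3 and highest without array 1. The pattern across arrays could not be recounted with an array left out. The wild-type level of array 3 was 2.18 above the others with processed signals. Oas3 and Herc6, dim in wild type, are limited by signal over background.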
